A study of Rattus norvegicus with 15 samples.

Results

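Erythroid genes, which serve the making and the work of red blood cells, were followed through articular cartilage of the rat knee over 5 stages of life. The list named 8 genes: Klf1, Epor, Hemgn, Slc4a1, Rhag, Ermap, Car1 and Alas2. A gene was taken where a probe set carried its symbol alone, and among several such probe sets the one with the highest mean over all arrays stood for it. That gave 7 of the 18166 genes so named on the array, and Alas2, the red cell form of the first enzyme of haem synthesis, was not analysed here. Rhag had 2 probe sets with identical values on every array, which were counted once.

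All samples were total RNA of right-knee articular cartilage from Sprague-Dawley rats, harvested individually, and 3 arrays were hybridised per stage, 15 in all, each named a biological replicate in the labels. Newborn cartilage is T0 and that of youth T1, the adult stage is T2, and old age has an early stage, T3, and a latter stage, T4. No treatment or altered allele is named, and age in days, sex and the layers taken have no entry in the labels. T1 replicate 3 is called adult in 1 label field and youth in the others, and it was kept in youth. Cartilage holds no blood vessels when mature, and red cell precursors are cells of marrow rather than of cartilage.

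Red blood cells arise in bone marrow from precursors that divide under the hormone erythropoietin, acting on its receptor Epor, and under transcription factors such as Klf1 and Gata1. Precursors build haemoglobin, haem and a membrane rich in the anion exchanger Slc4a1 (band 3) and the Rh proteins, and then lose their nucleus. In newborn rats the liver and spleen still take part in this work, and marrow fills the long bones as they grow. Circulating red cells keep little RNA apart from that of young cells, the reticulocytes, in which globin transcripts dominate.

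The 6 listed genes for which an upstream window was found shared a short sequence match that the choice of the list did not use. GATA factors such as Gata1 bind short sites. The site AGATAA was searched on both strands, its variant AGATAG was searched as well, and so were the site TGATAA and its variant TGATAG, none of which overlaps the letters CACCC of the boxes that Klf1 binds. RefSeq windows upstream of the annotated start were found for 6 of the 8 listed genes, among them Alas2, and none was used for Car1 and Slc4a1. A GATA match on either strand lay within 150 bases upstream of a start in all 6 genes, while 16.6% of 33469 windows of all genes in the table held one. That share counts windows and not genes. The 6 genes had 7 windows, and Hemgn had a window without a match. A CACCC match on either strand lay in the same stretch in 3 of the 6 genes (Klf1, Ermap and Rhag), against 35.2% of all windows. Within 250 bases the share of all windows was 27.0% for GATA and 49.2% for CACCC, and Epor held CACCC matches as well. A match is a description of letters and not a measured binding site. The 5 stretches of measured genes are shown because they hold these matches, with the GATA letters (or their reverse complement) in capitals, 150 bases each on the minus strand of GRCr8, 5′ to 3′ toward the start site.
Klf1: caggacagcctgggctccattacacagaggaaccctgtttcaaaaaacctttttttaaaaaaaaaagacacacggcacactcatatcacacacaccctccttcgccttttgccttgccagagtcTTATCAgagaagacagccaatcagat
Epor: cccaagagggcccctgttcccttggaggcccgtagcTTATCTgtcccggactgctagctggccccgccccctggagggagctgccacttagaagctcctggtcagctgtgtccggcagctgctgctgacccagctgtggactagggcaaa
Hemgn: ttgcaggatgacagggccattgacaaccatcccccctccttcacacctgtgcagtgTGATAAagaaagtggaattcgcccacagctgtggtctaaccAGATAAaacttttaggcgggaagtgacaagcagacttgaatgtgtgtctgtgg
Rhag: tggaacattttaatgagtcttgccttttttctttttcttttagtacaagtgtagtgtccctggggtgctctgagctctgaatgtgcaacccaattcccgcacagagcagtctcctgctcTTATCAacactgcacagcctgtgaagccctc
Ermap: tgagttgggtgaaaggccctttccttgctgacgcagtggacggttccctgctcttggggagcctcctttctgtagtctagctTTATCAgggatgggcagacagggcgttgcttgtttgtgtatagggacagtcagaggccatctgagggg
These lie at chr19:40158652-40158801 (Klf1), chr8:28770323-28770472 (Epor), chr5:65485822-65485971 (Hemgn), chr9:27594391-27594540 (Rhag) and chr5:138088159-138088308 (Ermap). The match began 26 bases before the start in Klf1, 31 in Rhag, 68 in Ermap and 114 in Epor. Hemgn has 2 windows. The one shown held 2 matches, beginning 94 and 53 bases before its start, and the other held none.

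The arrays themselves differed in old age, and these values stand beside every result with T3 or T4. The standard deviation of an array over its 36685 probe sets lay between 2.00 and 2.05 on the newborn, youth and adult arrays, and averaged 1.89 ± 0.07 at T3 and 1.62 ± 0.13 at T4 (SD, n = 3 each). The median of 50 ribosomal protein genes, which every cell transcribes, was 9.69 to 10.2 on the 12 arrays of T0 to T3, against 6.62, 9.19 and 9.04 on the 3 arrays of T4. The median of 1185 olfactory receptor genes, which cartilage is not known to use, was 2.84 to 3.41 on the arrays of T0 to T3 and 4.38, 3.57 and 3.70 at T4. T4 replicate 1 stood farthest apart on each of these measures. The cartilage collagen Col2a1 averaged 8.001 ± 1.47 at T4 and 12.36 ± 0.06 in the newborn (SD, n = 3), and fell at T4 over T0 by 4.36 (limma adjusted p = 2.84e-05). Acan, the core protein of the cartilage proteoglycan, averaged 6.61 ± 1.00 at T4 and 11.68 ± 0.16 in the newborn (SD, n = 3), and also fell (limma adjusted p = 2.53e-06), while array medians lay between 4.94 and 5.28. Sox9, a regulator of chondrocytes, had stage means between 5.12 and 5.58, near the array medians.

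Values below are log2 signals after robust multi-array averaging (RMA), in which a step of 1 is a doubling of signal. Klf1, a zinc finger factor that switches on adult globin and other red cell genes, read 4.75, 4.98 and 4.78 on newborn arrays, 7.36, 7.51 and 7.43 in youth, 7.02, 6.70 and 7.26 in adults, 6.98, 6.95 and 6.95 in early old age (T3) and 7.68, 6.99 and 7.02 in latter old age (T4). Every array after birth lay above every newborn array. The highest of the 15 values came from T4 replicate 1, the array on which all 6 other members read lowest of the stage. Epor, the receptor through which erythropoietin keeps precursors alive, read 4.80, 4.69 and 4.79 on newborn arrays, 6.28, 6.31 and 6.32 in youth, 5.97, 6.36 and 6.32 in adults, 6.99, 6.68 and 6.88 in early old age (T3) and 5.75, 6.36 and 5.84 in latter old age (T4). It was the only member of the 7 whose highest stage mean was at T3. Hemgn, a nuclear protein of blood-forming cells, read 6.95, 5.43 and 5.02 on newborn arrays, 11.66, 11.40 and 11.48 in youth, 11.02, 11.17 and 11.35 in adults, 11.07, 11.02 and 11.38 in early old age (T3) and 6.25, 10.74 and 10.37 in latter old age (T4). The 9 arrays of T1 to T3 lay between 11.02 and 11.66, while T4 replicate 1 lay inside the newborn range.

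Slc4a1, which exchanges chloride for bicarbonate and anchors the membrane skeleton, read 6.60, 5.51 and 5.35 on newborn arrays, 11.25, 11.19 and 11.23 in youth, 10.49, 10.85 and 10.73 in adults, 10.48, 10.49 and 10.99 in early old age (T3) and 6.71, 10.02 and 9.57 in latter old age (T4). Rhag, which carries the Rh proteins to the cell surface, read 4.90, 4.03 and 4.64 on newborn arrays, 8.91, 8.89 and 8.46 in youth, 8.33, 8.38 and 8.60 in adults, 8.45, 8.62 and 8.70 in early old age (T3) and 5.83, 7.96 and 7.39 in latter old age (T4). For both genes T4 replicate 1 lay above the highest newborn array, and all 3 arrays of T4 lay below every array of T1 to T3. Ermap, an immunoglobulin-like protein of the erythroblast surface that carries the Scianna blood group in humans, read 5.85, 5.72 and 5.12 on newborn arrays, 9.80, 9.79 and 9.77 in youth, 8.90, 9.11 and 9.04 in adults, 8.72, 8.65 and 9.31 in early old age (T3) and 6.17, 7.92 and 7.73 in latter old age (T4). Its 3 youth arrays lay between 9.77 and 9.80, above all others. Car1, carbonic anhydrase I, which turns carbon dioxide into bicarbonate in the red cell, read 6.58, 4.50 and 4.76 on newborn arrays, 11.30, 11.54 and 10.99 in youth, 11.36, 10.77 and 11.59 in adults, 10.01, 10.93 and 10.84 in early old age (T3) and 5.64, 9.15 and 9.31 in latter old age (T4). Its T4 replicate 1 lay below T0 replicate 1.

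**Figure D1:**
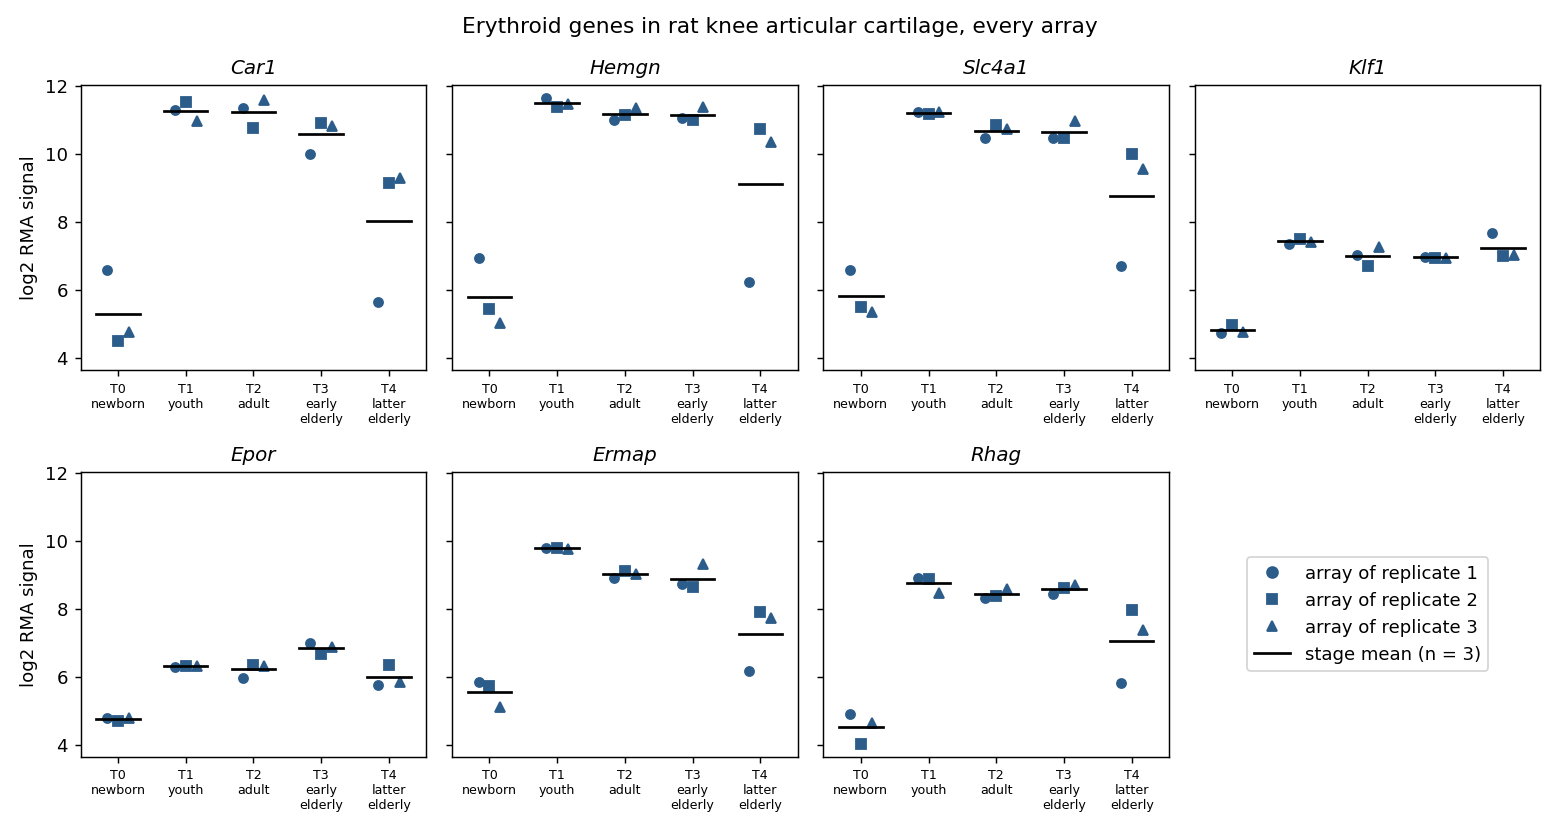
Log2 RMA signal (vertical axis) of the 7 measured erythroid genes on every array, by stage from T0 to T4 (horizontal axis), with 1 symbol per replicate number and a line at each stage mean (n = 3). Every gene sat lowest at T0, T1 to T3 lay close together, and T4 replicate 1 was the lowest T4 array for 6 genes, by a small margin for Epor, and the highest for Klf1.

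T0 replicate 1 was the highest newborn array for 6 of the 7 genes, with its widest gaps to the other newborn arrays for Car1, Hemgn and Slc4a1, and its mean over the 7 was 5.78, against 4.98 and 4.92 for replicates 2 and 3. T4 replicate 1 was the lowest T4 array for 6 of the 7, with a mean of 6.29, against 8.45 and 8.18. At T1 the 3 arrays had means of 9.51, 9.52 and 9.38, and no array was highest for more than 4 genes. The means were 9.02, 9.05 and 9.27 at T2 and 8.96, 9.05 and 9.29 at T3, each a spread smaller than the gap to T0.

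All 7 genes rose in youth over newborn cartilage. In bulk tissue, more or fewer cells of a type and more or less RNA per cell cannot be told apart. The fold changes ran from 2.92 for Epor and 6.06 for Klf1 through 18.6 for Ermap, 18.8 for Rhag and 42.3 for Slc4a1 to 52.5 for Hemgn and 63.8 for Car1. On the log2 scale Klf1 rose by 2.60 (SE 0.21, limma adjusted p = 3.17e-06), Epor by 1.55 (SE 0.19, limma adjusted p = 0.000144), Ermap by 4.22 (SE 0.37, limma adjusted p = 6.34e-06) and Rhag by 4.23 (SE 0.40, limma adjusted p = 1.245e-05). Hemgn, Slc4a1 and Car1 rose with a larger SE (0.85, 0.62 and 0.77), and their limma adjusted p ran from 6.51e-05 to 0.000525. That SE pools the spread of all 5 stages. In the same order the SD was 1.01, 0.68 and 1.14 at T0 and 0.13, 0.03 and 0.28 at T1. At T4 it was 2.49, 1.80 and 2.07 (n = 3 each). The background for this count is that 4.01% of all probe sets rose at an adjusted p under 0.05. The members were chosen with earlier results of these data known, so the count and this share are not an independent contrast. The 3 youth arrays lay above the 3 newborn arrays for all 7 genes, as they did for 14.9% of all probe sets. Among the 36685 probe sets ordered from the largest rise, Car1 stood at place 4, Hemgn at 7 and Slc4a1 at 9, while Klf1 stood at 245 and Epor at 789. Without any single array all 7 genes still passed, and their rises stayed between 1.51 (Epor) and 6.65 (Car1).

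At the next steps no member was called. In adult over youth none of the 7 genes passed limma's test (0.891% of all probe sets did, 0.488% as rises and 0.403% as falls), and none had an unadjusted p under 0.05. The changes ran from -0.77 (SE 0.37, Ermap, adjusted p = 0.612) to -0.04 (SE 0.77, Car1), so the sign was negative for all 7. All 3 adult arrays lay below the 3 youth arrays for Hemgn, Slc4a1, Klf1 and Ermap, a pattern shown by 10.4% of all probe sets. With array weights, and with only the 6 arrays of these stages, Ermap passed (limma adjusted p = 0.0204 and 0.0328). In early elderly over adult cartilage again none of the 7 passed (0.15% of all probe sets did), and 1 had an unadjusted p under 0.05. That gene was Epor, at 0.63 (SE 0.19, limma adjusted p = 0.114), and its 3 early elderly arrays lay above the 3 adult arrays, as for 16.1% of all probe sets. It passed with array weights (adjusted p = 0.00323) and without the T4 arrays (adjusted p = 0.0415). The other 6 changes ran from -0.65 (SE 0.77, Car1) to 0.15 (SE 0.40, Rhag).

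In latter over early elderly cartilage 5 of the 7 genes fell. Epor changed by -0.87 (SE 0.19, limma adjusted p = 0.0039), Ermap by -1.62 (SE 0.37, limma adjusted p = 0.00418), Rhag by -1.53 (SE 0.40, limma adjusted p = 0.009), Car1 by -2.56 (SE 0.77, limma adjusted p = 0.0175) and Slc4a1 by -1.89 (SE 0.62, limma adjusted p = 0.0252). Hemgn (-2.04, SE 0.85, limma adjusted p = 0.0658) and Klf1 (0.27, SE 0.21, limma adjusted p = 0.322) did not pass. In this comparison 25.8% of all probe sets fell and 16.5% rose, and the 3 T4 arrays lay below the 3 T3 arrays for 6 members, as they did for 25.8% of all probe sets. For Klf1 all T4 arrays lay above all T3 arrays (15.8% of all probe sets). The size of the falls rested on T4 replicate 1: without it Car1 stood at -1.37 (adjusted p = 0.054), Slc4a1 at -0.86 (adjusted p = 0.0549) and Hemgn at -0.60 (adjusted p = 0.277), and 3 genes passed, Epor at -0.75, Ermap at -1.07 and Rhag at -0.92. The same 3 passed without T3 replicate 3. Car1 also missed the threshold with array weights, at -0.96 (adjusted p = 0.0904). Hemgn passed (adjusted p = 0.0451) when the first T0 and the first T4 array were both left out, a choice made after seeing the data. After quantile normalization Epor was the 1 member that fell, and Klf1 rose by 1.10 (adjusted p = 0.0152), while all calls in this comparison split to 51.4% rises against 39.0% without that normalization. With only the 6 arrays of T3 and T4 no member passed.

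**Figure D2:**
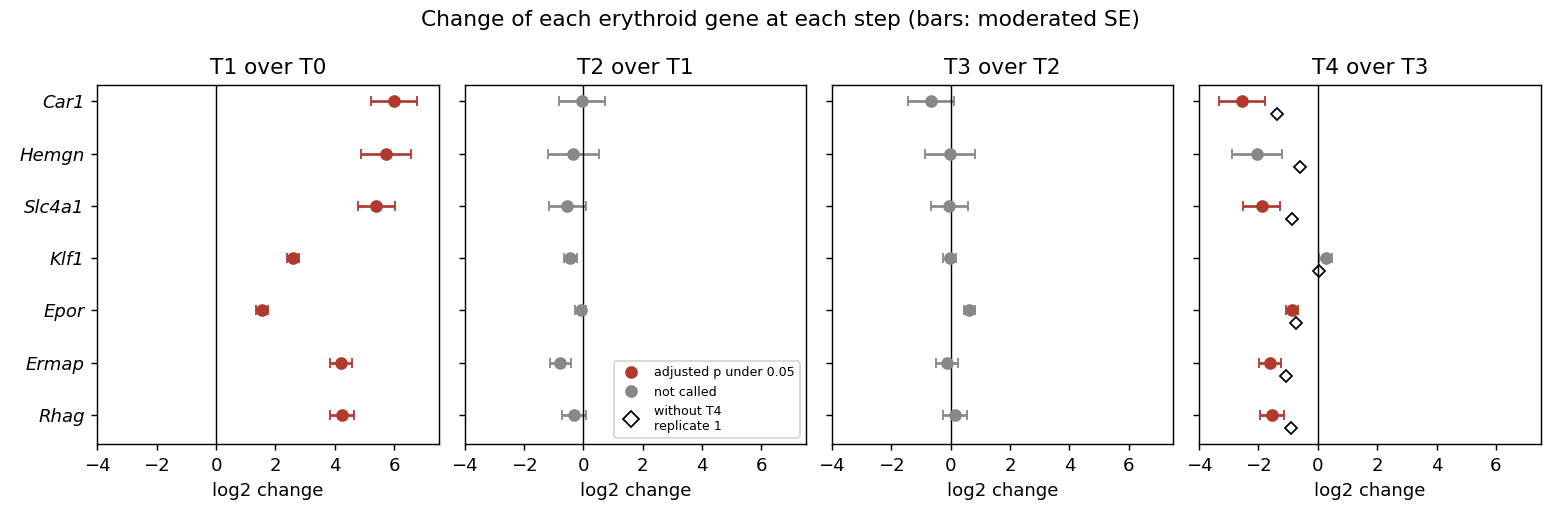
Log2 change of each erythroid gene (horizontal axis, bars showing limma's moderated SE, n = 3 arrays a stage) at the 4 steps between successive stages, with genes down the vertical axis. Red points passed an adjusted p under 0.05: all 7 at the first step, none at T2 over T1 or T3 over T2, and 5 at T4 over T3, where open diamonds give the change without T4 replicate 1.

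Set against newborn cartilage, all 7 genes rose at every later stage. These comparisons share the newborn arrays, so their values are given side by side only. Klf1 changed by 2.16 at T2, 2.13 at T3 and 2.39 at T4. Epor changed by 1.46, 2.09 and 1.23 at the same stages. Among T2, T3 and T4 the change was highest at T4 for Klf1 and at T3 for Epor. At T1 Klf1 had changed by 2.60, more than at T4, and without T4 replicate 1 its T4 change was 2.17. Slc4a1 changed by 4.87 at T2, 4.83 at T3 and 2.94 at T4, Hemgn by 5.38, 5.36 and 3.32 at the same stages, and Car1 by 5.96, 5.31 and 2.75. Rhag changed by 3.91, 4.07 and 2.54, and Ermap by 3.45, 3.33 and 1.71. The largest adjusted p among these values was 0.00834, for Car1 at T4. The share of all probe sets that rose was 6.51% at T2, 8.3% at T3 and 28% at T4. All later arrays lay above all newborn arrays for the 7 genes at T2 and T3 (17.8% and 21.4% of all probe sets) and for 5 at T4 (31.1% of all probe sets), where Car1 and Hemgn overlapped. Without T4 replicate 1 the T4 changes of these 2 genes were 3.95 and 4.76. In the F test over all 5 stages the 7 genes passed with adjusted p between 3.92e-06 (Klf1) and 0.000279 (Hemgn), as did 60.1% of all probe sets.

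The order of stage means was T1, T2, T3, T4 and T0 from high to low for Car1, Hemgn, Slc4a1 and Ermap. Rhag had T3 above T2, Klf1 had T4 in the second place, and Epor had T3 first. Newborn cartilage, the lowest in every order, differed from each other stage by the test. The steps between T1 and T2 and between T2 and T3 did not pass for any of the 7. The step between T3 and T4 passed for all but Hemgn and Klf1, where 25.8% of all probe sets fell and 16.5% rose. With only the 6 arrays of T3 and T4 it passed for 0 of the 7.

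Other genes of red cell making rose at the same step, youth over newborn. Of 15 measured genes of the red cell membrane and its skeleton 12 rose and 0 fell (median 2.50, against -0.03 for all probe sets), among them the Rh antigen Rhd (4.83, SE 0.36), the membrane skeleton protein Epb42 (4.33, SE 0.36), the blood group protein Kel (4.15, SE 0.37) and the actin bundler Dmtn (2.50, SE 0.22). Of 13 genes of haem synthesis and its transport 9 rose and 0 fell (median 1.74), led by p-value by the mitochondrial carrier Slc25a39 (1.74, SE 0.20) and the pathway enzymes Uros (1.99, SE 0.25), Urod (2.07, SE 0.28) and Cpox (3.21, SE 0.44). Of 15 red cell enzymes and late maturation genes 11 rose (median 1.85). They included the haem breakdown enzyme Blvrb (2.91, SE 0.20), Trim10, needed for late red cell maturation in mouse cells (3.19, SE 0.24), the lipoxygenase Alox15 (5.79, SE 0.55), which helps clear organelles, and the red cell pyruvate kinase Pklr (1.55, SE 0.21). Of 10 genes of iron uptake and storage 4 rose (median 1.25): the mitochondrial iron importer Slc25a37 (4.13, SE 0.37), the transferrin receptor Tfr2 (1.30, SE 0.21), the ferrireductase Steap3 (1.19, SE 0.23) and the ferritin receptor Ncoa4 (2.16, SE 0.55).

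Of 13 erythroid transcription factors 6 rose (median 0.92), among them Gata1 (3.21, SE 0.35) and Tal1 (2.52, SE 0.32), which work together in red cell precursors, and Ikzf1 (2.98, SE 0.17) and Bcl11a (2.21, SE 0.20), which lymphoid cells also use. Of 16 genes of erythropoietin signalling 5 rose and 0 fell (median 0.24). They were the phosphatase Ptpn6 (2.91, SE 0.47), Stat5a (1.04, SE 0.21), which carries the receptor's signal to the nucleus, the kinases Lyn (1.91, SE 0.44) and Pim1 (0.92, SE 0.23), and the survival factor Bcl2l1 (1.19, SE 0.33). Epo, the hormone, named after its value was seen, stood at -0.36 (SE 0.22, limma adjusted p = 0.538). It is among the 11 genes of the list that did not pass.

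Of 9 measured genes of the globin list, which includes the chaperone Ahsp, 4 rose (median 0.76). The alpha globins Hba-a1 (2.25, SE 0.57, limma adjusted p = 0.0248) and Hba-a3 (2.65, SE 0.65, limma adjusted p = 0.0202) and the beta globin Hbb-b1 (2.33, SE 0.64, limma adjusted p = 0.0378) rose, and so did Ahsp, the chaperone of free alpha globin (5.30, SE 0.69). The others did not pass: Hbz (-0.47, SE 0.21), Hbg1 (-0.57, SE 0.38), Hbe1 (-0.05, SE 0.25), Hbe2 (0.62, SE 0.34) and Hbq1 (0.76, SE 0.29), 4 of them named after their values were seen. Hba-a1 read 12.60, 12.37 and 12.33 on the youth arrays, against 10.72, 10.25 and 9.58 on the newborn arrays, and Hbb-b1 read 12.72, 12.40 and 12.43 in youth, against 10.58, 10.35 and 9.63 in the newborn. Ahsp read 10.90, 10.57 and 10.84 in youth, against 6.42, 5.05 and 4.92 in the newborn. T0 replicate 1 was the highest newborn array for all 3 of these genes, as it was for 6 of the members. Globin genes are near-identical copies, and probe sets that carry several globin symbols were not used, so values of single globins are uncertain.

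Genes of other cell types were called at the same step, and their part in the rise of the erythroid genes was not tested. Of 7 megakaryocyte and platelet genes 6 rose (median 2.21), with the platelet chemokine Ppbp (4.43, SE 0.48) and the platelet receptor subunit Gp9 (2.80, SE 0.27). Of 14 neutrophil and myeloid genes 12 rose (median 3.38), and of 8 B cell genes 7 rose (median 2.81). Of 10 bone-forming genes 5 rose (median 1.01), and of 17 cell cycle genes 7 rose (median 1.25). Of 7 endothelial genes, which mark vessels, limma called 0, and 0 had an unadjusted p under 0.05 (median 0.07), and of 9 blood stem and progenitor genes 2 rose (median 0.09). All 9 measured skeletal muscle genes fell (median -2.21, against 3.54% of all probe sets that fell), and the mean of that list was 7.61 to 8.43 on the youth arrays, against 10.6 to 11.1 on the newborn arrays.

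**Figure D3:**
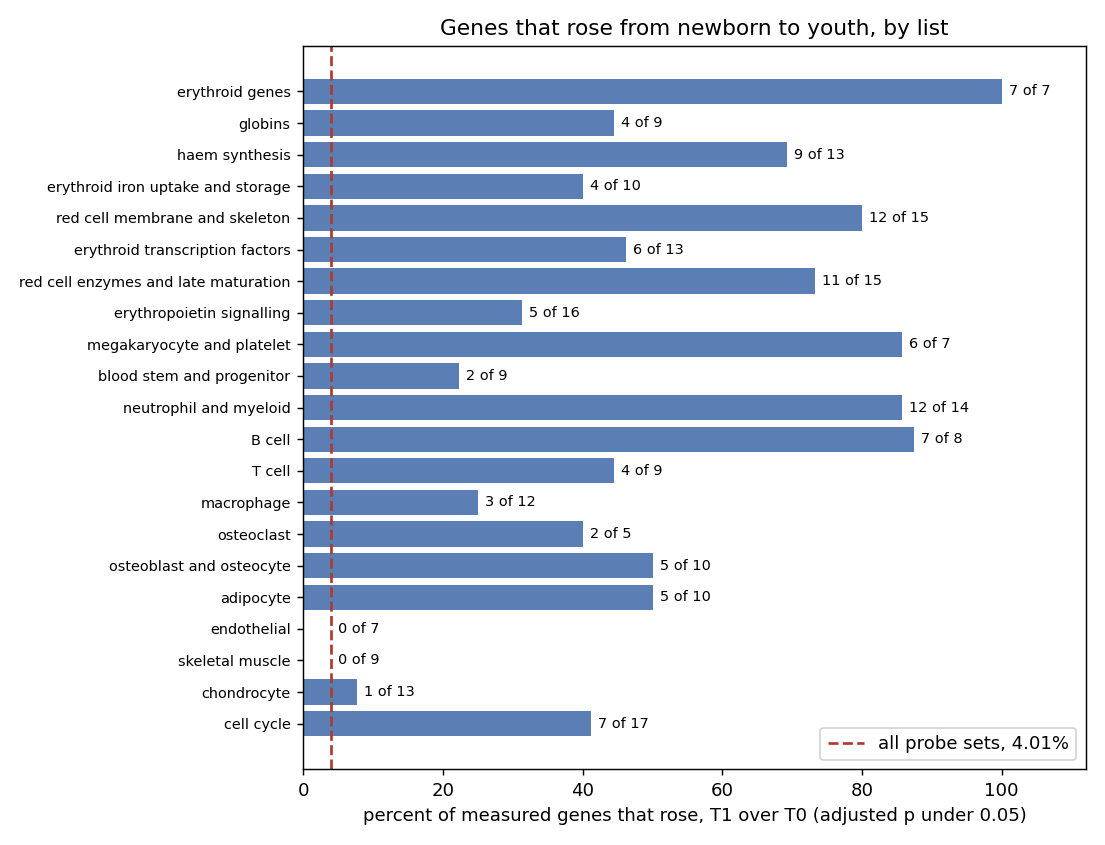
Percent of the measured genes of each list that rose from newborn to youth (horizontal axis, limma adjusted p under 0.05, with the counts printed at the bars), for the erythroid genes and 20 other lists, with a dashed line at the 4.01% of all probe sets. The erythroid genes stood at 7 of 7, the B cell, megakaryocyte and neutrophil lists each had all but 1 or 2 genes called, and no endothelial or skeletal muscle gene rose. Members and lists were chosen with earlier results of these data known.

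In adult over youth cartilage the lists had different values. The mean of the erythroid genes was 9.02 to 9.27 on adult arrays, against 9.38 to 9.52 on youth arrays, and that of neutrophil and myeloid genes was 10.04 to 10.22 on adult arrays, against 8.38 to 8.79 on youth arrays. In that step 2 of 14 myeloid genes rose (median 1.53), one of them Cebpe, a factor of late granulocyte maturation (1.31, SE 0.23). The B cell list had 0 of 8 called and a median of -0.04, and the megakaryocyte list 0 of 7 and a median of 0.30. The difference between the erythroid and the other lists was not tested. The chondrocyte list had a mean of 9.62 to 9.71 in youth, 8.58 to 9.23 in adult and 7.22 to 7.99 in early elderly cartilage, while the erythroid genes had means of 8.96 to 9.29 in early elderly cartilage.

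**Figure D4:**
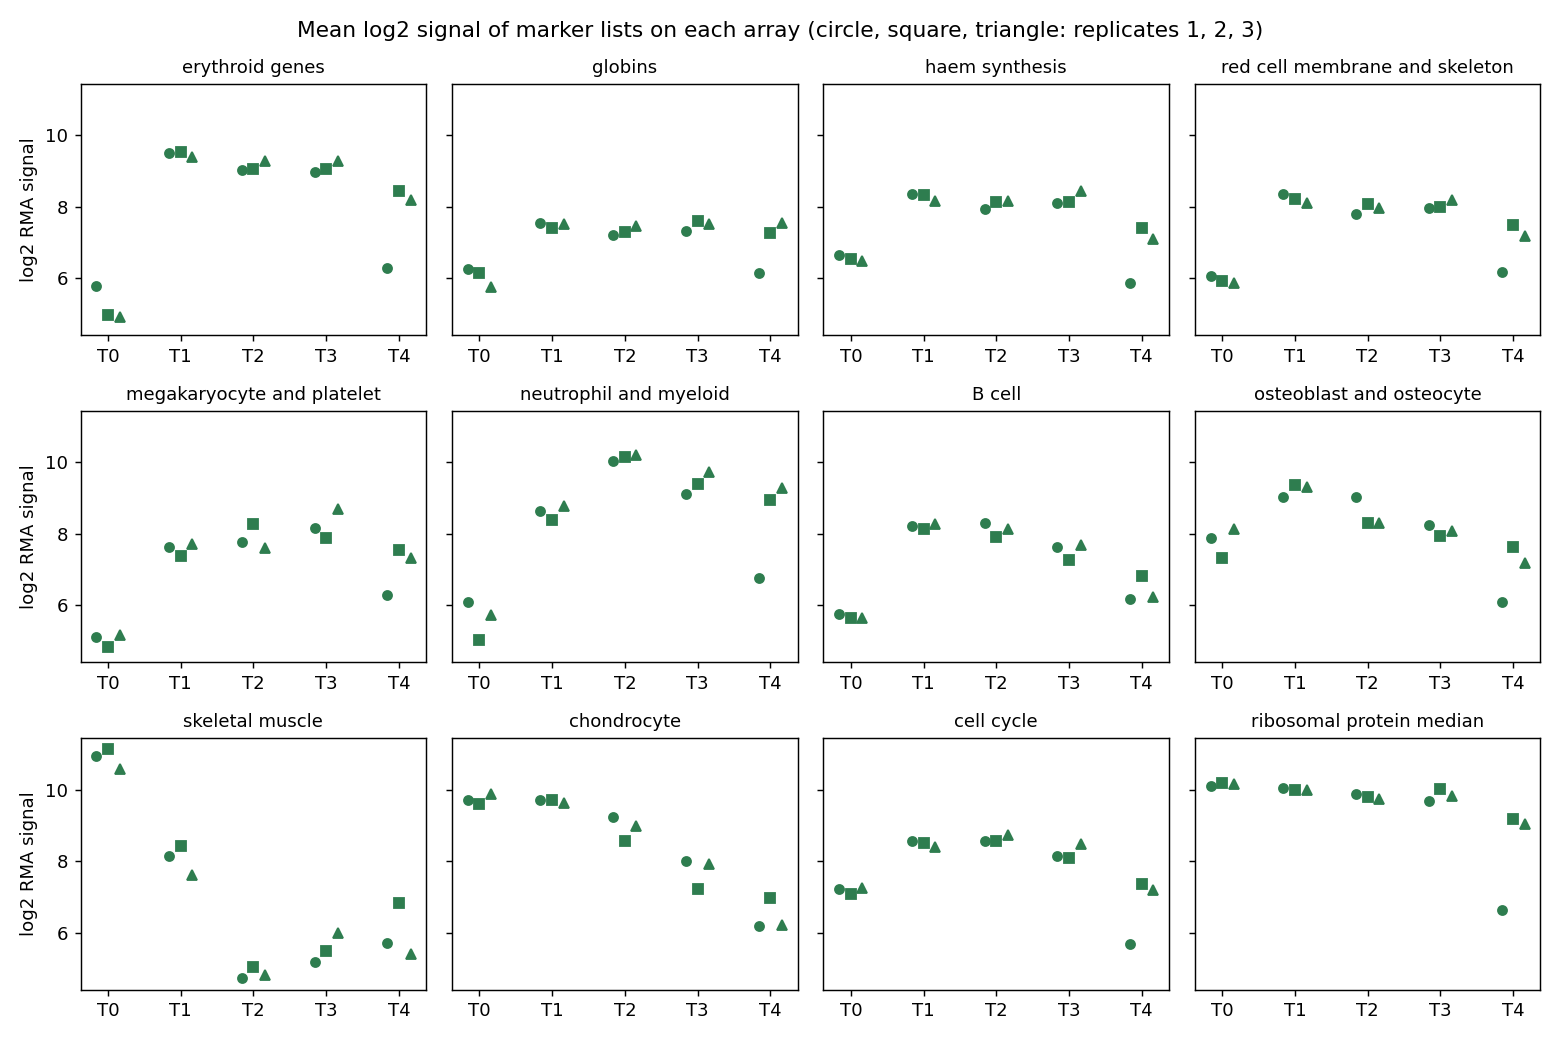
Mean log2 RMA signal (vertical axis) over the genes of 11 lists and the median over ribosomal protein genes, on each of the 15 arrays by stage (horizontal axis). The erythroid, haem and membrane lists were lower at T0 than at T1 to T3, the myeloid list was highest at T2 and the muscle list at T0, and T4 replicate 1 (circle) was the lowest T4 array in all panels but skeletal muscle.

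Beside the falls of the erythroid genes, genes of the related lists fell at T4 over T3. In that comparison 25.8% of all probe sets fell and 16.5% rose. There 13 of 15 red cell enzyme and maturation genes fell (median -1.54), 11 of 13 haem genes (median -1.55), 11 of 15 membrane genes (median -1.10), 11 of 13 transcription factors (median -1.07) and 9 of 16 erythropoietin signalling genes (median -0.72), against -0.08 for all probe sets. Against the same 25.8%, 16 of 17 cell cycle genes (median -1.58), 6 of 8 B cell genes, 7 of 13 chondrocyte genes and 3 of 9 blood stem and progenitor genes fell, with 1 of the last list rising. At the same step 5 of 7 megakaryocyte, 7 of 12 macrophage, 6 of 14 neutrophil and myeloid and 3 of 7 endothelial genes fell. Of 10 bone-forming genes 6 fell and 1 rose, of 10 iron genes 6 fell and 1 rose, and of 5 osteoclast genes 2 fell. Some lists had few falls: of 9 T cell genes 1 rose and 1 fell (median -0.02), of 10 adipocyte genes 3 rose and 2 fell (median 0.04), and of 9 skeletal muscle genes 2 rose and 0 fell (median 0.32). Of the 9 genes of the globin list 2 rose and 1 fell. Ahsp fell (-2.29, SE 0.69), Hba-a1 did not pass (-1.15, SE 0.57), and the embryonic Hbz (1.08, SE 0.21) and Hbg1 (1.14, SE 0.38), the last named after its value was seen, rose. Hba-a1 read 9.25, 12.08 and 12.16 at T4, so that replicates 2 and 3 lay within the range of T1 to T3 (12.01 to 12.70) and replicate 1 lay below all newborn arrays. Hbz read 6.29, 5.94 and 6.10 at T4, highest on replicate 1. These values stand beside the lower ribosomal protein and higher olfactory receptor medians of T4, and the part of those medians in the falls and rises was not tested.

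By their values over the 15 arrays, the 10 genes most like the erythroid profile were Kel, Rhd, Gata1, Slc25a37, Cd79a, Ank1, Ypel4, Ahsp, Fam210b and Kcnn4. The profile was the mean of the members after each was scaled to mean 0 and SD 1, and the Pearson correlation with it ran from 0.996 for Kel to 0.977 for Kcnn4. Among the members it was 0.995 for Rhag, 0.991 for Slc4a1, 0.979 for Hemgn, 0.972 for Ermap, 0.967 for Car1, 0.926 for Epor and 0.844 for Klf1, which helped to form it. These correlations describe 15 arrays of which the newborn arrays and T4 replicate 1 lie apart, and the arrays share their normalization. Of the 10, Kel, Rhd, Slc25a37, Ank1 and Ahsp are red cell membrane, iron or globin genes and Gata1 is a red cell regulator, while Cd79a is a signalling chain of the B cell receptor. Cd79a averaged 5.85 in the newborn, 8.75 in youth, 8.82 in adults, 8.57 in early and 7.71 in latter old age.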

How the data were processed

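The authors deposited log2 signals for 36685 probe sets of Affymetrix RaGene 2.0 ST arrays, and the submitters' processing notes name RMA. That method subtracts background, gives all arrays the same probe distribution and merges probes, so shifts common to most genes shrink. Version and build: not given in the sources used here. For arrays, their number limits the precision.

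Probe sets were named from the platform annotation (18511 with 1 symbol, 575 with several, 17599 with none), and 18394 of the first were matched to RefSeq by Entrez identifier. limma 3.58.1 in R 4.3.3 fitted 1 mean per stage to all 15 arrays, with Benjamini-Hochberg adjustment over all probe sets in each of 7 comparisons. An adjusted p under 0.05 was a call. The fit was tested on simulated data that had the same spread at every stage. That test could not show how the fit behaves where the arrays of a stage lie farther apart, as at T4. Probe sets have no detection call here, so a level near background is not told from a low level. Promoter windows came from RefSeq (GRCr8). T1 replicate 3 correlated at a mean of 0.977 with T1 and 0.963 with T2 arrays. P-values and SE rest on the spread between arrays that the labels name biological replicates. For each probe set the fit pooled that spread over all stages, so T4 arrays also weigh on steps without T4. Hemgn had an SE of 0.845 at T2 over T1, where its SD was 0.13 at T1, 0.16 at T2 and 2.49 at T4. At T4 over T3 each erythroid gene called had a smaller SE in the pooled fit than with only the 6 arrays (Epor, 0.19 against 0.30).

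Named were all members, of each list up to 4 called genes with the smallest p at T1 over T0 and up to 2 at T4 over T3, and the 10 genes most like the members, without provisional symbols. The ribosomal protein class was restricted to coding genes after the data were seen, and the olfactory receptor class was taken by symbol alone. Members and lists were chosen with earlier results of these data known. Some named globins, and Epo, fall outside this rule. Listed genes without a probe set of their own were not analysed here. Alternatives were array weights, quantile normalization, trended and robust variances, fewer arrays, a filter on dim probe sets (log2 of at least 5 in 3 arrays), a replicate block and T1 replicate 3 placed with T2.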

Additional observations from a re-analysis of the deposited data

How the results depend on the processing

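All 7 erythroid genes passed at T1, T2, T3 and T4 over T0 under every alternative run except with only the 6 arrays compared at T4 over T0, where Car1 and Hemgn did not pass and 5 genes did. All 7 passed the F test under every alternative run. At T4 over T3 the count of 5 became 2 after quantile normalization (1 rise and 1 fall) and 0 with only the 6 arrays, and ran from 3 to 6 without single arrays. At T2 over T1 it became 1 with array weights and 1 with only the 6 arrays, and at T3 over T2 it became 1 with array weights and 1 without the T4 arrays. Without single arrays it stayed at 0 in both.

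Counts of all called probe sets moved as well. At T1 over T0, 2772 became 6852 with array weights, 5358 with only the 6 arrays and 1777 with T1 replicate 3 placed with T2 (1796 to 3846 without single arrays). At T2 over T1, 327 (54.7% rises) became 2381 with array weights, 147 (42.9% rises) after quantile normalization, 596 with only the 6 arrays, 9 with T1 replicate 3 placed with T2, 604 without the T4 arrays and 576 without the first T0 and T4 arrays, the last chosen after seeing the data (108 to 674 without single arrays). At T3 over T2, 55 (25.5% rises) became 10464 with array weights, 10 (0% rises) after quantile normalization, 85 with trended variances, 0 with only the 6 arrays, 136 without dim probe sets, 32 with the replicate block, 1895 without the T4 arrays and 1056 without the first T0 and T4 arrays (0 to 4165 without single arrays). At T4 over T3, 15493 became 2532 with only the 6 arrays (11534 to 17507 without single arrays). At T2 over T0, 4659 became 9230 with array weights and 7131 with only the 6 arrays, and at T3 over T0, 6555 became 15636 with array weights. The causes were not tested.

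Signs turned only for changes that did not pass. At T2 over T1 Car1 was 0.10 with array weights and -0.21 to 0.20 without single arrays, and Epor -0.16 to 0.0342. At T3 over T2 Klf1 was 0.16 and Ermap 0.13 after quantile normalization. Without single arrays Hemgn ran from -0.13 to 0.0592, Slc4a1 from -0.20 to 0.0479, Klf1 from -0.18 to 0.10 and Ermap from -0.33 to 0.00228. Quantile normalization moved the median of all probe sets at T3 over T0 from 0.15 to 0.03.

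Replicate numbers gave no sign of pairing. Deviations of same-numbered arrays of different stages correlated at a mean of -0.02 over 30 pairs (-0.19 to 0.12). Those of different-numbered arrays correlated at a mean of 0.01 over 60 pairs (-0.19 to 0.21). Whether arrays shared a batch was not tested. With the replicate block the erythroid genes called were 7 at T1 over T0, 0 at T2 over T1, 0 at T3 over T2, 5 at T4 over T3 and 7 at T2, T3 and T4 over T0.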

Other observations

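Of 12 macrophage genes 3 rose in youth over newborn cartilage (list median 0.45, changes from -0.75 to 1.97), where 4.01% of all probe sets rose. They were Adgre1 (1.33, SE 0.19), Cd68 (1.79, SE 0.28) and Vcam1 (1.97, SE 0.44), the last an adhesion molecule that macrophages of erythroblast islands use to hold precursors. At T4 over T0 none of the 12 macrophage genes rose and 5 fell (median -0.64), while all 7 erythroid genes rose. In that comparison 28% of the 36685 probe sets rose and 9864 fell, and the difference between the 2 lists was not tested. Of 10 adipocyte genes 5 rose and 1 fell in youth over newborn cartilage, where 3.54% of all probe sets fell, with the fat cell hormone Adipoq at 3.20 (SE 0.30) and Cidea, a brown fat lipid droplet gene, at -1.80 (SE 0.26). In adult over youth cartilage 3 of 10 adipocyte genes fell (median -1.05), where 0.403% of all probe sets fell, while none of the 7 erythroid genes passed. The adipocyte list had a mean of 5.39 to 5.76 on adult arrays, against 6.59 to 6.86 on youth arrays.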
